A study of Epimedium pubescens with 27 samples.

Results

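Leaves of Epimedium pubescens, a medicinal herb of the barberry family, were compared between plants that received high nitrate (HN, 22.5 mM NO3-) and plants that received none (LN, 0 mM NO3-), at 48 days after treatment, the stage called S3. The comparison rests on 6 of the 27 leaf libraries of the series, 3 from HN S3 and 3 from LN S3, and it was made over every gene that passed a filter on low counts. Middle nitrate (MN, 7.5 mM NO3-) and the earlier harvests at 24 and 36 days (S1 and S2) are used only to place it. Seedlings of each treatment were grown in the same way apart from the nutrient solution. In HN part of the nitrate came as a sodium salt, and in LN chloride and sulfate salts stood in for the nitrate salts, so the level of nitrate cannot be told apart from those ions. According to the methods, old leaves were chlorotic under LN and necrotic under HN by this harvest, and nothing in the sources ties the leaves taken for RNA to those.

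Nitrate taken up by a plant is reduced in the cytosol to nitrite by nitrate reductase, and nitrite is reduced in the plastid to ammonium by nitrite reductase. Nitrite reductase takes its electrons from ferredoxin, an iron-sulfur protein of the plastid, and carries siroheme, a ring cofactor made on a side branch of chlorophyll synthesis. In tissues or states with little photosynthetic electron flow, non-photosynthetic ferredoxins are charged with NADPH from the oxidative pentose phosphate pathway, whose first enzyme is glucose-6-phosphate dehydrogenase. Ammonium then enters glutamine and glutamate through glutamine synthetase and ferredoxin-dependent glutamate synthase. Epimedium leaves are known for prenylated flavonol glycosides such as icariin, which draw on the phenylpropanoid pathway and on aromatic prenyltransferases.

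The 6 libraries held 15064043 to 18482851 counts on genes, out of 13609959 to 18482851 over all 27. Replicates of a group were unequally alike. HN S3 A and B had a correlation of 0.993 over log2 CPM (counts scaled to a common library total), higher than any pair of libraries of different groups (at most 0.967), and the median absolute difference between them was 0.158 on the log2 scale, against 0.0630 that counting error alone gives at their depth. This does not show whether they are separate plants, since 2 preparations of 1 RNA can also differ by more than counting error. They are labelled as replicates and entered the fit as such, and results without either of them are given below. HN S3 C stood apart from both (median differences of 0.377 and 0.391), and the LN S3 libraries differed from each other by 0.457 to 0.556. Marker genes of photosynthetic leaf cells summed to 32402 to 75039 CPM in LN S3 and 31313 to 50825 CPM in HN S3, with 59 of 62 such genes detected, while the 8 root markers summed to at most 223 CPM. Levels below are given as FPKM (fragments scaled to gene length and library size, as deposited), each from 1 library unless a mean is named. In whole leaves, fewer cells of a type and less RNA per cell cannot be told apart.

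At S3, 31 of 28593 tested genes, 0.108%, were called different between HN and LN by edgeR's quasi-likelihood test on all 27 libraries. The threshold was an adjusted p (Benjamini-Hochberg) below 0.05 together with at least a 2-fold difference, that is a log2 fold change of at least 1 in size. The 19 genes that rose make up 0.0664% of those tested and the 12 that fell 0.042%. In 30 of the 31 the HN and LN libraries did not overlap, as in 19.8% of all tested genes. The median log2 fold change of all tested genes was -0.01, a value that the TMM scaling itself sets near 0. Of the genes without overlap, 10.8% of those tested were higher and 8.93% lower in HN.

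The size of that list depended on which libraries were in the fit. With only the 6 libraries of HN S3 and LN S3, edgeR called 1 gene of 22413, 0.00446%, a coatomer alpha subunit. Leaving HN S3 A or HN S3 B out of the 27 also left 1 called gene, and leaving out LN S3 C left 2. Without LN S3 A the count was 10, without LN S3 B it was 475, and without HN S3 C it was 530. When 1 library of each of 7 close replicate pairs was left out, as HN S3 B was, no gene was called, with 1852 genes at an unadjusted p below 0.05. DESeq2 called 1009 genes on the 27 libraries and 927 on the 6, which is 3.52% of the genes it tested (2.15% higher and 1.37% lower in HN). The adjusted p-values below come from the fit of all 27 libraries and are to be read with these counts.

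The gene with the smallest p was Ebr04G050260, annotated as ferredoxin-3, on chromosome 4 (393925353 to 393930322, minus strand, in a genome build whose name was not given in the sources used here). In maize this ferredoxin is a non-photosynthetic form that serves nitrite reduction. Its FPKM was 7.79, 5.08 and 10.7 in LN S3 A, B and C, and 40.2, 41.4 and 58.2 in HN S3 A, B and C. Every HN library lay well above every LN library. It rose 5.94-fold (log2 fold change 2.57 ± 0.32 SE, edgeR adjusted p = 0.00192). It was called in each of the 6 fits that left out 1 library, with an adjusted p of 0.0053 without HN S3 A and 0.00677 without HN S3 B, but in the fit of the 6 libraries alone its adjusted p was 0.166.

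Nitrite reductase, Ebr04G050620 (chromosome 4, 396976706 to 396979708, minus strand), also rose. Its FPKM was 6.36, 10.5 and 12.9 in LN S3 A, B and C, and 42.9, 46.9 and 133 in HN S3 A, B and C. The groups did not overlap, and HN S3 C held nearly 3 times the level of the other HN libraries. The rise was 7.5-fold (log2 fold change 2.91 ± 0.58 SE, edgeR adjusted p = 0.0484), and the adjusted p was 0.151 without HN S3 A.

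The third called gene of this step was Ebr06G025300, the uroporphyrinogen III methyltransferase that commits the ring to siroheme (chromosome 6, 202851471 to 202876628, plus strand). Its level was 7.5, 8.34 and 9.37 FPKM in LN S3 A, B and C and 15.2, 15 and 27.5 FPKM in HN S3 A, B and C. Again the groups did not overlap and HN S3 C was highest. It rose 2.29-fold (log2 fold change 1.19 ± 0.23 SE, edgeR adjusted p = 0.0395), and its adjusted p was 0.187 without HN S3 B.

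Other genes named here for their place in the same step did not pass the test. They were picked after their values were seen. A keyword list of reductant and siroheme supply for nitrite reduction, also assembled after values were seen, had a median log2 fold change of 0.09. Of its 25 tested genes, 14 were positive and 11 negative. At an unadjusted edgeR p below 0.05, 5 (20%) were higher and 1 (4%) lower in HN, against 7.65% and 8.77% of all tested genes. The 5 include 2 called genes. Because the list was put together with values known, its share cannot be read as an excess over all genes. Plastid glucose-6-phosphate dehydrogenase Ebr05G066740 had 9.23, 9.83 and 13.6 FPKM in LN and 20.4, 21.7 and 33 FPKM in HN, without overlap (log2 fold change 1.20 ± 0.26 SE, edgeR adjusted p = 0.078). A second ferredoxin-3 gene, Ebr04G018070, had 14.1, 52.1 and 18.2 FPKM in LN and 75.4, 81.5 and 74.5 FPKM in HN (log2 fold change 1.45, edgeR adjusted p = 0.251). So 1 of the 4 tested ferredoxin-3 genes was called.

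**Figure D1:**
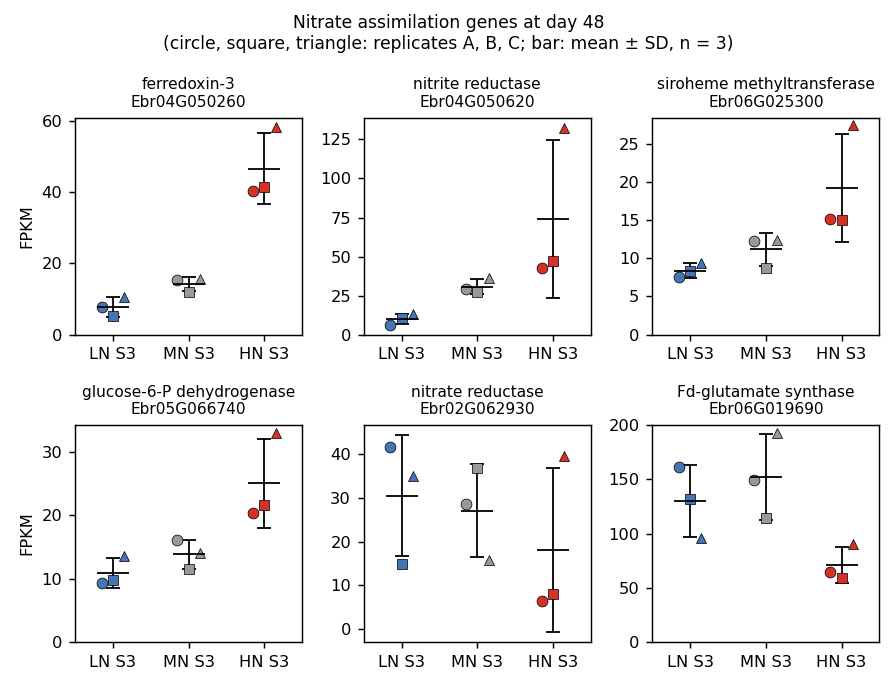
FPKM (vertical axes, linear, from or near 0) of 6 nitrate assimilation genes in the LN, MN and HN libraries at day 48, with a circle, square and triangle for replicates A, B and C and bars for the mean ± SD of 3 libraries. The ferredoxin-3 points lie at 5.08 to 10.7 in LN and 40.2 to 58.2 in HN, while nitrate reductase overlaps between all groups.

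The enzymes before and after nitrite reduction were not called. Nitrate reductase Ebr02G062930 had 41.6, 14.9 and 35 FPKM in LN S3 and 6.5, 8.02 and 39.6 FPKM in HN S3. HN S3 C lay within the LN range while the other HN libraries lay below it (log2 fold change -0.75 ± 0.57 SE, edgeR adjusted p = 0.522). Ferredoxin-dependent glutamate synthase Ebr06G019690 had 162, 132 and 95.9 FPKM in LN and 64.7, 58.9 and 90.3 FPKM in HN (log2 fold change -0.87 ± 0.28 SE, edgeR adjusted p = 0.164). Plastid glutamine synthetase Ebr02G017870 overlapped between groups, with a mean of 444 ± 150 FPKM in LN and 400 ± 82.4 FPKM in HN (SD, n = 3). Of 18 tested genes of nitrate reduction and ammonium assimilation, 16 had a negative log2 fold change and the median was -0.51, with nitrite reductase as the 1 called member. One gene of this list, asparagine synthetase Ebr01G067880, was set by a single library: LN S3 A, B and C held 6.68, 410 and 1.11 FPKM, against 188, 175 and 26.1 FPKM in HN. Its log2 fold change was -0.12 with all libraries and 5.03 without LN S3 B.

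Among nitrate transporters edgeR called no gene, and DESeq2 on the 6 libraries called 1 higher gene of the NRT2 and NRT3 families and 3 of the NPF family. The 12 tested genes of the high-affinity NRT2 and NRT3 families had a median log2 fold change of 1.21, and 3 of them had an unadjusted p below 0.05 with the higher value in HN, against 7.65% of all tested genes. Without HN S3 C, LN S3 A or LN S3 C only 1 of 13 (7.69%) was on that side. In those fits 7.89%, 5.93% and 4.77% of all genes were on it. Without HN S3 C the median was 0.58. The NRT3 partner protein Ebr03G053620, which Arabidopsis NRT2 transporters need for uptake, had 58.2, 85.2 and 63.8 FPKM in LN and 95.4, 112 and 137 FPKM in HN (log2 fold change 0.73 ± 0.23 SE, edgeR adjusted p = 0.16). The 83 tested genes of the NPF family, which carry nitrate, peptides and hormones, had a median of 0.09, and of 0.66 without LN S3 B. Its gene with the smallest p, the NPF2.13-like Ebr03G061490, had 8.78, 9.18 and 79.8 FPKM in LN and 2.75, 3.01 and 8.66 FPKM in HN (log2 fold change -2.75, edgeR adjusted p = 0.115). The 11 tested regulators of nitrate signalling (NLP, HHO/NIGT1 and BT genes) had a median of -0.19, and none reached an unadjusted p below 0.05 in edgeR.

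Several other genes that rose went from near absence in LN to a clear level in HN. The coatomer alpha subunit Ebr04G074770, part of the coat of vesicles that leave the Golgi, had 0.179, 0.15 and 0.178 FPKM in LN and 7.7, 7.82 and 5.26 FPKM in HN (log2 fold change 5.33 ± 0.93 SE, edgeR adjusted p = 0.032). It was also the gene called with the 6 libraries alone (edgeR adjusted p = 0.0274). The aspartic protease Ebr04G018830, like the Arabidopsis CDR1 that acts in disease resistance, had 0.695, 0.134 and 0.326 FPKM in LN and 77.9, 70.8 and 28.9 FPKM in HN (log2 fold change 7.23 ± 1.37 SE, edgeR adjusted p = 0.0395). In both genes every HN library was many times above every LN library.

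A putative disease resistance protein, Ebr04G028030 (RGA3-like), had no count in LN and 138, 115 and 17 counts in HN S3 A, B and C. Set against a floor of 3 counts in each LN library it was at least 30.6-fold higher (edgeR adjusted p = 0.0274). An assembled gene with no annotation in the files (chromosome 4, 340979198 to 340986158, plus strand) had no count in LN and 191, 201 and 33 counts in HN, at least 48.4-fold higher on the same floor (edgeR adjusted p = 0.0395). An assembled receptor-like kinase gene annotated as MIK2 (chromosome 4, 18726936 to 18727929, plus strand) had 1, 0 and 0 counts in LN and 58, 68 and 36 in HN (edgeR adjusted p = 0.0395). In the first 2 of these HN S3 C lay far below the other HN libraries. Resistance proteins and receptor-like kinases belong to large families in which reads can be split between near-identical copies.

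More of the called genes showed the same unevenness within HN. Ebr02G060450, like the yeast ATP23 protease of the inner mitochondrial membrane, had 3.11, 4.74 and 2.63 FPKM in LN and 32.8, 31.1 and 5.38 FPKM in HN (edgeR adjusted p = 0.0274). Tubulin-folding cofactor E, Ebr05G034610, had 6.8, 8.91 and 5.1 FPKM in LN and 68.8, 59.4 and 10.1 FPKM in HN (edgeR adjusted p = 0.0395). The aldolase-like gene Ebr03G000300 had 13.7, 14.4 and 8.99 FPKM in LN and 124, 148 and 24.4 FPKM in HN (edgeR adjusted p = 0.0409). In each, HN S3 A and B carried most of the difference and HN S3 C lay just above the LN range.

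Smaller and more even rises were seen in 3 annotated genes. Serine carboxypeptidase-like 29 (Ebr02G072950) had 19.2 to 26.4 FPKM in LN and 37.9 to 53.1 FPKM in HN. 7-dehydrocholesterol reductase (Ebr01G071280), a late enzyme of sterol synthesis, had 14.8 to 26.2 FPKM in LN and 40 to 51.7 FPKM in HN. The ubiquitin-RPL40 fusion gene Ebr05G019360, which yields both ubiquitin and a protein of the large ribosomal subunit, had 23.8 to 44.4 FPKM in LN and 68.6 to 98.2 FPKM in HN. Their edgeR adjusted p-values lay between 0.0318 and 0.0395. The calcium pump Ebr04G069040, like Arabidopsis ACA2, had 0.939 to 1.19 FPKM in LN and 1.98 to 5.7 FPKM in HN (edgeR adjusted p = 0.04). An F-box gene like Arabidopsis CPR1, which limits the level of immune receptors there, had 0.608 to 1.28 FPKM in LN and 5.1 to 11.5 FPKM in HN (Ebr04G010850, edgeR adjusted p = 0.0396). The other 3 genes that rose (Ebr05G017620, Ebr04G048120 and Ebr02G016830) have no Swiss-Prot match in the files.

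Of the 12 genes that fell, 5 carry a word of plastids, mitochondria or organelle gene expression in their annotation (chloroplast, plastid, mitochond, pentatricopeptide or mTERF, words chosen after these genes were seen). The same words stand in 4 of the 19 genes that rose and in 10.2% of all tested genes, and no test was made. SEEDLING PLASTID DEVELOPMENT 1 (Ebr01G057820, chromosome 1, 501888772 to 501924434, plus strand), which Arabidopsis seedlings need to build chloroplasts, had 35.4, 21.6 and 34.6 FPKM in LN and 7.63, 8.32 and 12.3 FPKM in HN. It fell 3.25-fold (log2 fold change -1.70 ± 0.26 SE, edgeR adjusted p = 0.0274). PAM68 (Ebr04G001720, chromosome 4, 9722101 to 9730654, plus strand), an assembly factor of photosystem II, had 125, 65.2 and 105 FPKM in LN and 41.7, 42.3 and 44.5 FPKM in HN. It fell 2.3-fold (log2 fold change -1.20 ± 0.22 SE, edgeR adjusted p = 0.0395). The HN libraries of PAM68 were nearly equal, and the spread lay in LN.

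HCF101 (Ebr01G051060, chromosome 1, 442989667 to 443059542, minus strand), which supplies iron-sulfur clusters to photosystem I, had 40.4, 36.3 and 35.3 FPKM in LN and 13.8, 11.8 and 20.4 FPKM in HN. It fell 2.44-fold (log2 fold change -1.29 ± 0.25 SE, edgeR adjusted p = 0.0409). The pentatricopeptide repeat gene Ebr04G000710, of a family that binds RNA in organelles, had 4.08, 2.8 and 4.12 FPKM in LN and 1.25, 1.12 and 1.78 FPKM in HN (log2 fold change -1.41 ± 0.27 SE, edgeR adjusted p = 0.04). Ebr01G051440, of the mTERF family of organelle transcription and splicing factors, had 13.3, 10.6 and 12.9 FPKM in LN and 5.95, 4.05 and 6.37 FPKM in HN (log2 fold change -1.17 ± 0.23 SE, edgeR adjusted p = 0.0484). In all 5 genes the groups did not overlap. Without HN S3 A none of the 5 was called, with an adjusted p of 0.151 for SEEDLING PLASTID DEVELOPMENT 1 and 0.274 for HCF101.

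**Figure D2:**
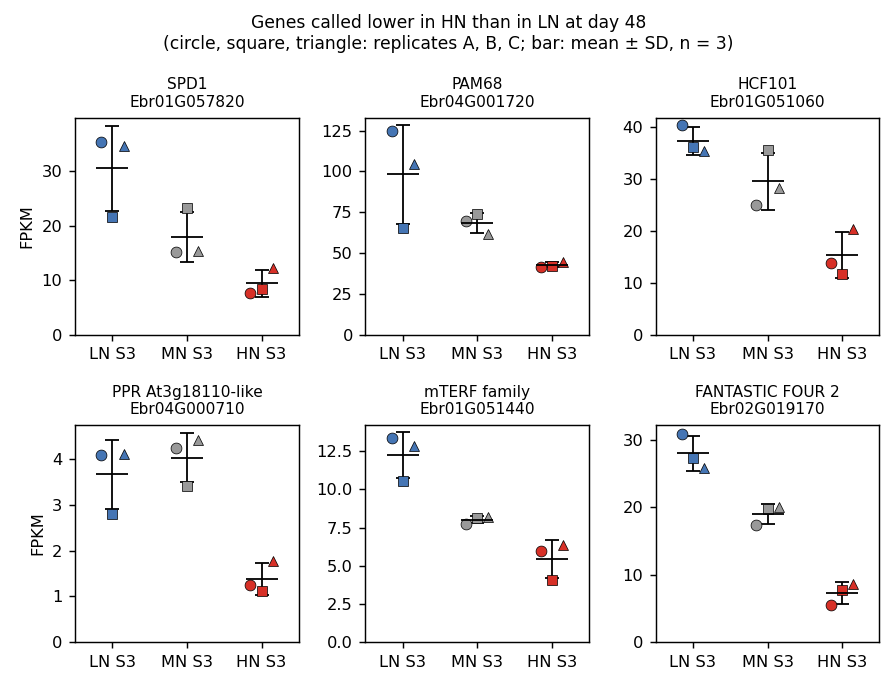
FPKM (vertical axes, linear, from 0) of 6 genes that fell in HN, in the LN, MN and HN libraries at day 48, with a circle, square and triangle for replicates A, B and C and bars for the mean ± SD of 3 libraries. In all 6 panels every HN point lies below every LN point, and in 5 of the panels the MN mean lies between the LN and HN means.

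FAF2 (Ebr02G019170), of a family that limits shoot meristem size in Arabidopsis, had 30.9, 27.3 and 25.8 FPKM in LN and 5.47, 7.64 and 8.62 FPKM in HN (log2 fold change -1.95 ± 0.33 SE, edgeR adjusted p = 0.0274). The LN libraries were all about 3 times or more above the HN libraries. A small subunit of the replicative DNA polymerase delta, an assembled gene (chromosome 1, 346835335 to 346930062, minus strand), had 9.65, 10.5 and 10.2 FPKM in LN and 4.95, 4.29 and 4.67 FPKM in HN, with little spread in either group (edgeR adjusted p = 0.0274). The DRM2-like DNA methyltransferase gene Ebr01G027720 had 7.6, 24.2 and 26 FPKM in LN and 3.17, 2.83 and 4.26 FPKM in HN (edgeR adjusted p = 0.0395). Of the 4 genes that fell and have no annotation, all assembled, the one on chromosome 6 (106064915 to 106065919, minus strand) had 187, 26 and 96 counts in LN and none in HN, at least 32.5-fold lower on the floor of 3 counts per library. Its MN libraries were also at 0. In another, on chromosome 5 (346524511 to 346673770, minus strand), the groups overlapped, since LN S3 A (1.37 FPKM) lay within the HN range.

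Gene lists formed from annotation keywords are described here beside the few called genes. The members of a list were measured in the same 6 libraries and are not independent of each other. Counts of members are therefore not replicates of the treatment, and no test of a list was made. In the lists of photosynthesis, starch and clock genes described next edgeR called no gene that fell. DESeq2 on the 6 libraries called 2 higher and 2 lower genes of photosystems and electron transport. It called 1 lower gene of carbon fixation, 3 lower amylases and 1 lower gene of the clock list. In starch synthesis it called 1 higher gene and 0 lower genes. The lists are therefore given by their median and by how many members had an unadjusted edgeR p below 0.05 with the lower value in HN, against 8.77% of all tested genes. Over all tested genes, 50.6% had a negative log2 fold change. The share on each side moved with the fit. The lower side held 4.76%, 4.69% and 11.4% of all genes without HN S3 A, B and C, and 6.76%, 9.85% and 6.73% without LN S3 A, B and C. The higher side held 5.23%, 4.75% and 7.89%, and 5.93%, 11.8% and 4.77%, in the same order. Counts from a fit without 1 library are to be read against the share in that fit.

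In carbon fixation 14 of 15 tested genes had a negative log2 fold change, with a median of -0.59, and 6 of them (40%) had such a p. Rubisco activase Ebr06G000760, which keeps the carbon-fixing enzyme active, had 7398, 4946 and 5380 FPKM in LN and 2589, 2650 and 3067 FPKM in HN. All HN libraries lay below all LN libraries (log2 fold change -1.10 ± 0.26 SE, edgeR adjusted p = 0.0824). Ebr01G044770, annotated as sedoheptulose-1,7-bisphosphatase of the Calvin cycle, had 786, 605 and 487 FPKM in LN and 285, 276 and 385 FPKM in HN (log2 fold change -0.99 ± 0.24 SE, edgeR adjusted p = 0.0835). The study names this gene as a fructose bisphosphatase. When 1 library was left out, 4 to 7 of 16 tested genes were on the lower side at such a p.

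Photosystem and electron transport genes had a median of -0.52 over 72 genes, with 56 negative and 8 (11.1%) at an unadjusted p below 0.05 on the lower side. That count was 5 without HN S3 A, 4 without HN S3 B or LN S3 B, and 15 of 73 (20.5%) without LN S3 C. The 2 called members of that keyword list are ferredoxin-3 and nitrite reductase, which serve nitrite reduction, and both rose. Antenna proteins, which bind the chlorophyll that harvests light, had a median of -0.50 over 50 genes with 4 (8%) at such a p, which is near the share over all genes. That median ranged from -0.92 without LN S3 C, where 13 (26%) were on the lower side, to 0.11 without LN S3 B. Chlorophyll synthesis genes had a median of -0.47 over 24 genes, with 6 (25%) on the lower side, and the 1 called member was the siroheme enzyme, which rose.

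Most starch genes had lower values in HN, in synthesis and in breakdown. Of 20 tested genes of starch synthesis 16 were negative, with a median of -0.72, and 10 (50%) had an unadjusted p below 0.05 on the lower side. Without HN S3 A that was 7 of 20 (35%), against 4.76% of all genes in that fit. The ADP-glucose pyrophosphorylase gene Ebr01G023580, of the entry step of starch synthesis, had 381, 253 and 213 FPKM in LN and 128, 126 and 145 FPKM in HN (log2 fold change -1.09 ± 0.29 SE, edgeR adjusted p = 0.119). Granule-bound starch synthase Ebr04G020710, which makes amylose, had 847, 303 and 568 FPKM in LN and 146, 132 and 324 FPKM in HN, where LN S3 B lay below HN S3 C. The 30 tested amylase genes had a median of -0.38, with 7 (23.3%) on the lower side. The inactive beta-amylase Ebr01G004090 among them had 209, 152 and 168 FPKM in LN and 60.4, 59.6 and 64.5 FPKM in HN (log2 fold change -1.52 ± 0.36 SE, edgeR adjusted p = 0.0824).

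Clock and photoreceptor genes had a median of -0.47 over 36 genes, 31 of them negative, and 14 (38.9%) had an unadjusted p below 0.05 on the lower side. The latter count was 5 (13.9%) without HN S3 A or HN S3 B, 6 without LN S3 A and 7 without LN S3 C. Without HN S3 A and HN S3 B, 4.76% and 4.69% of all genes were on that side. REVEILLE 8 (Ebr01G049680), a morning factor that activates evening genes in Arabidopsis, had 72.3, 60.5 and 87.2 FPKM in LN and 36.1, 33.2 and 41 FPKM in HN (edgeR adjusted p = 0.147). The hour at which each library was sampled was not given in the sources used here, and its part in these values was not tested.

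Among genes of phosphate starvation and phosphate transport, 62 of 87 had a negative log2 fold change, with a median of -0.66, and 21 (24.1%) had an unadjusted p below 0.05 on the lower side. That count was 12 of 94 (12.8%) without HN S3 A, 10 without HN S3 B and 9 of 92 (9.78%) without LN S3 C. Those fits held 4.76%, 4.69% and 6.73% of all genes on that side. DESeq2 on the 6 libraries called 3 higher and 8 lower genes of this list. Purple acid phosphatase Ebr06G047170, of a family that frees phosphate from organic compounds, had 112, 38.6 and 51.9 FPKM in LN and 1.54, 5.03 and 16.4 FPKM in HN (log2 fold change -3.13 ± 0.78 SE, edgeR adjusted p = 0.0989). The phosphate sensor gene SPX2 (Ebr02G060760) had 43.6, 11.8 and 34.4 FPKM in LN and 6.79, 7.85 and 8.56 FPKM in HN (log2 fold change -1.95 ± 0.50 SE, edgeR adjusted p = 0.106). A PHO1-like phosphate exporter gene (Ebr03G042530) had 6.06, 3.18 and 16.4 FPKM in LN and 0.0666, 0.0504 and 1.21 FPKM in HN (edgeR adjusted p = 0.115). In none of the 3 genes did the groups overlap.

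Genes that charge transfer RNAs with amino acids, the aminoacyl-tRNA synthetases, had a median of -0.28 over 95 genes, with 18 (18.9%) on the lower side (12 of 100 without HN S3 B and 27 of 100 without HN S3 C). Of those 18, 12 have a plastid or mitochondrial form in their name, against 42 of the 95. Alanine-tRNA ligase Ebr01G047730, named for both organelles, had 53.3, 45.5 and 54.8 FPKM in LN and 24.1, 21.8 and 32.8 FPKM in HN (log2 fold change -0.97 ± 0.23 SE, edgeR adjusted p = 0.0824). Cytosolic ribosomal protein genes lay on the other side, with a median of 0.19 over 322 genes and 223 of them positive, but with 25 (7.76%) at an unadjusted p below 0.05 on the higher side, a share close to the 7.65% of all genes. Without LN S3 C it was 10 and without HN S3 B 13. The 62 tested mTERF genes, which include the called one above, had a median of -0.37 with 10 (16.1%) on the lower side, and with 6, 5 and 5 without HN S3 A, HN S3 B and LN S3 C.

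**Figure D3:**
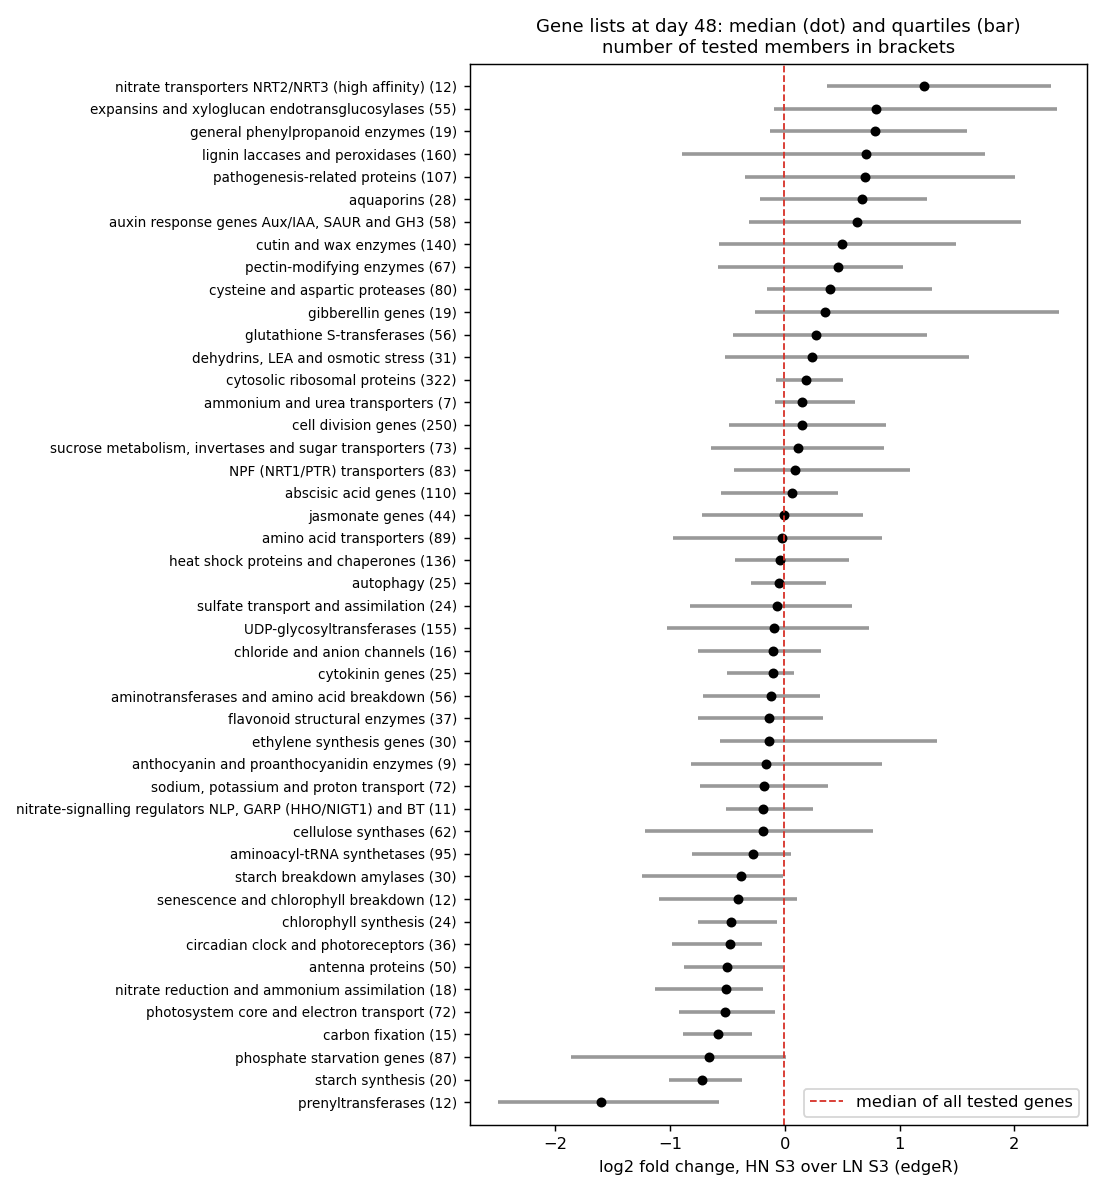
Median (dot) and quartiles (bar) of the log2 fold change HN over LN at day 48 for each keyword list, with the number of tested genes in brackets and a dashed line at the median of all tested genes, -0.01. The cell marker lists and the list of reductant and siroheme supply are not shown. Starch synthesis (-0.72), carbon fixation (-0.59) and prenyltransferases (-1.60) lie lowest together with phosphate starvation genes (-0.66), and high-affinity nitrate transporters (1.21) lie highest.

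Flavonoid synthesis, which makes the medicinal compounds of Epimedium, gave no gene called by edgeR in this comparison. DESeq2 on the 6 libraries called 1 higher structural enzyme, 2 lower prenyltransferases, and 7 higher and 1 lower UDP-glycosyltransferases. The 37 tested structural enzymes had a median of -0.14, and the sign of that median held in 7 of 9 other settings. The 10 genes for which the study designed qPCR primers were not called, and in 9 of them the groups overlapped. In the other, EpF3'5'H1 (Ebr01G061940), the difference was smaller than its standard error (log2 fold change 1.35 ± 1.40 SE). Chalcone synthase EpCHS2 (Ebr05G049130), the first enzyme of the flavonoid branch, had 129, 58.7 and 4.71 FPKM in LN and 25.7, 34.5 and 88.4 FPKM in HN. Flavanone 3-hydroxylase EpF3H (Ebr04G062950) had 142, 70.5 and 24.1 FPKM in LN and 50.3, 60 and 110 FPKM in HN. In both genes the HN range lay inside the LN range, and the fold changes were -0.37 and -0.11 on the log2 scale (edgeR adjusted p = 0.857 and 0.961). Phenylalanine ammonia-lyase EpPAL2 (Ebr04G040710), the entry to the phenylpropanoid pathway, had 4.83, 0.814 and 0.163 FPKM in LN and 2.28, 1.16 and 3.05 FPKM in HN.

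The aromatic prenyltransferases had the lowest median of all keyword lists, -1.60 over 12 genes, with 10 negative and 5 (41.7%) at an unadjusted p below 0.05 on the lower side. That count was 3 without HN S3 A, 2 without HN S3 B, 1 without LN S3 A and 7 without LN S3 B. EpPT5 (Ebr02G069310) had 360, 3.91 and 235 FPKM in LN and 7.15, 8.12 and 24.2 FPKM in HN. LN S3 A and C were many times above HN, while LN S3 B was below every HN library (log2 fold change -3.91 ± 1.62 SE, edgeR adjusted p = 0.249). A related assembled gene (chromosome 2, 572283635 to 572358741, plus strand) had 32.7, 6.06 and 44.4 FPKM in LN and 3.53, 4.25 and 9.96 FPKM in HN, with LN S3 B again the lowest of LN (edgeR adjusted p = 0.176). EpPT8 (Ebr02G069700), a flavonoid 8-prenyltransferase by its annotation, had 98.3, 100.8 and 32.7 FPKM in LN and 40.5, 44.3 and 87.3 FPKM in HN, which overlap (edgeR adjusted p = 0.698).

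**Figure D4:**
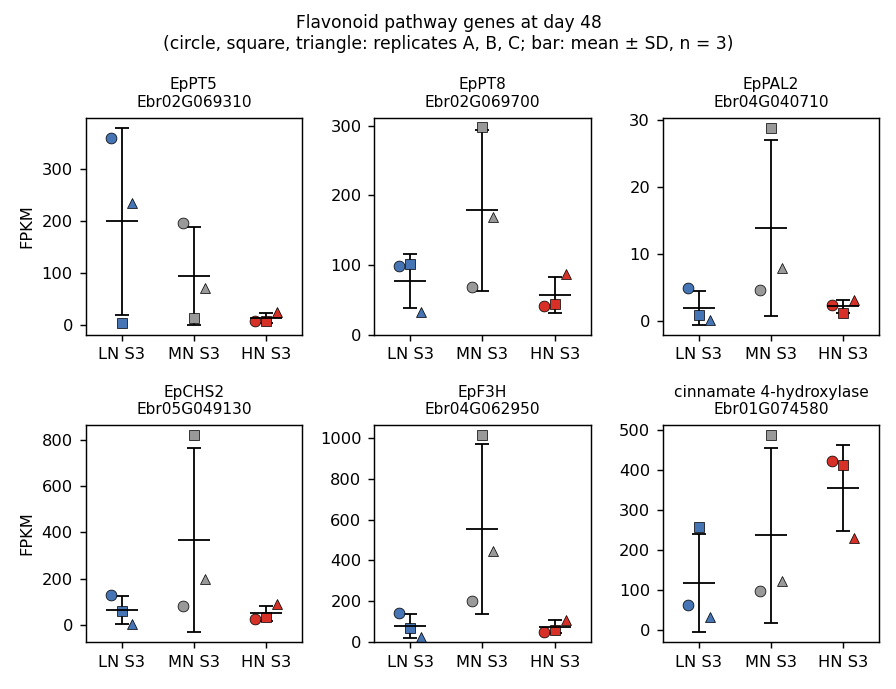
FPKM (vertical axes, linear) of 6 flavonoid pathway genes in the LN, MN and HN libraries at day 48, with a circle, square and triangle for replicates A, B and C and bars for the mean ± SD of 3 libraries. EpPT5 is at 360, 3.91 and 235 in LN and at most 24.2 in HN, and in 5 of the 6 panels MN replicate B is the highest point.

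Earlier in the phenylpropanoid pathway, the 19 tested general enzymes had a median of 0.78, with 2 on the higher and 1 on the lower side at an unadjusted p below 0.05. On the higher side it was 1 without HN S3 A or HN S3 B and 6 without LN S3 B, and DESeq2 on the 6 libraries called 1. Cinnamate 4-hydroxylase Ebr01G074580 had 62.3, 258 and 33.1 FPKM in LN and 424, 413 and 231 FPKM in HN, where LN S3 B lay above HN S3 C (log2 fold change 1.58 ± 0.67 SE, edgeR adjusted p = 0.255). LN S3 B was the highest LN library here and the lowest in EpPT5.

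Several cell wall, water transport and defence lists had positive medians, with no gene called by edgeR among their members. Cellulose synthases had a median of -0.19 over 62 genes. At an unadjusted edgeR p below 0.05, 9 (14.5%) were on the lower side and 0 on the higher side. The lower side held 4 of 64 without LN S3 A and 17 of 64 without HN S3 C. Pectin-modifying enzymes (0.47 over 67 genes) and cutin and wax enzymes (0.50 over 140) had 4.48% and 7.14% on the higher side. Over all tested genes 7.65% were on the higher and 8.77% on the lower side. DESeq2 on the 6 libraries called 4 higher expansin and xyloglucan genes, 12 higher and 3 lower laccases and peroxidases, 2 higher aquaporins, and 12 higher and 4 lower pathogenesis-related genes. It also called 2 lower cellulose synthases, 1 higher and 1 lower pectin-modifying gene, and 7 higher and 2 lower cutin and wax genes. Expansins and xyloglucan endotransglucosylases, which loosen walls, had a median of 0.80 over 55 genes, with 9 (16.4%) on the higher side at an unadjusted p below 0.05. That was 5 of 56 without LN S3 A, 18 of 57 without LN S3 B and 4 of 57 (7.02%) without LN S3 C. Those fits held 5.93%, 11.8% and 4.77% of all genes on that side. Laccases and peroxidases, many of which act in lignin formation, had a median of 0.71 over 160 genes with 16 (10%) on the higher side and 12 (7.5%) on the lower side. LN S3 B decided that value, since without it the median was 1.79 and 62 of 168 (36.9%) were on the higher side, against 11.8% of all genes in that fit. The lower side held 6 without HN S3 A and 20 without HN S3 C. Peroxidase Ebr02G067460, like Arabidopsis PRX52, had no count in LN and 49, 96 and 854 counts in HN. It was at least 109-fold higher on the floor of 3 counts per library, with HN S3 C far above the others (edgeR adjusted p = 0.0824). Markers of xylem summed to 59.0, 2508 and 153 CPM in LN S3 A, B and C and to 1265 to 2256 CPM in HN, with 75 of 88 detected, and cuticle markers summed to 6216 to 9506 CPM in LN and 10215 to 19491 CPM in HN, with 67 of 94 detected. The xylem markers were found by keywords that include laccase and cellulose synthase A subunits. They therefore share genes with the laccase and cellulose synthase lists and are not independent of them. The cuticle markers may share genes with the cutin and wax list in the same way. The part of xylem and epidermis content in these lists was not tested.

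Aquaporins, the water channels, had a median of 0.67 over 28 genes with 5 (17.9%) on the higher side, 3 without LN S3 A, 10 of 30 without LN S3 B and 1 of 30 (3.33%) without LN S3 C. PIP2-1 (Ebr06G006880) had 116, 200 and 43.5 FPKM in LN and 475, 444 and 144 FPKM in HN, where HN S3 C lay within the LN range. Pathogenesis-related proteins had a median of 0.70 over 107 genes with 14 (13.1%) on the higher side, and 9 of 113 (7.96%) without LN S3 C. In that last fit 4.77% of all genes were on the higher side. The anion channel gene CLC-b (Ebr02G011200), of a family that moves nitrate or chloride into vacuoles, had 0.0742, 16.6 and 1.35 FPKM in LN and 53.1, 46.9 and 41.5 FPKM in HN (log2 fold change 2.96 ± 1.18 SE, edgeR adjusted p = 0.233). Lists of sodium, potassium and proton transport (-0.18 over 72 genes) and of chloride and anion channels (-0.10 over 16 genes) had medians near 0.

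The same contrast of HN and LN was made at the earlier harvests. At S1, 32 genes were called (0.112% of those tested), 5 higher (0.0175%) and 27 lower (0.0944%) in HN, and at S2 1 gene (0.0035%), lower in HN. Of the 31 genes called at S3, 19 had the same direction at S1 and 25 at S2. At an unadjusted edgeR p below 0.05 in that direction, 7 did so at S1 and 9 at S2. Over all tested genes, 12.1% and 11.3% had such a p in either direction, which is a wider measure. The share of all tested genes with the same direction as at S3 was not computed, so these counts do not show more agreement than over all genes. The median of carbon fixation genes was 0.12 at S1 and -0.01 at S2, and that of starch synthesis genes 0.11 and -0.09. Photosystem genes had 0.07 and 0.04, and amylases -0.10 and -0.09. Chlorophyll synthesis genes had 0.07 at S1 and -0.19 at S2, while antenna proteins had -0.01 at S1 and, at S2, -0.48, close to their median at S3. High-affinity nitrate transporters had a median of 1.91 at S1 and -0.36 at S2.

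A test of the difference between harvests (the S3 contrast minus the S1 contrast, edgeR on the 27 libraries) called 24 genes at an adjusted p below 0.05, 0.0839% of those tested. The change was upward in 17 (0.0595%) and downward in 7 (0.0245%), 13.4% of all genes had an unadjusted p below 0.05, and 6 of the 24 are among the 31. Ferredoxin-3 had the smallest p. Its FPKM was 7.54, 7.98 and 9.49 in LN and 3.2, 5.4 and 4.8 in HN at S1, and 7.09, 6.43 and 13.2 in LN and 18.9, 15.7 and 15.7 in HN at S2. HN was thus below LN at S1, above it at S2, and furthest above it at S3 (difference of log2 fold changes 3.50 ± 0.44 SE, edgeR adjusted p = 0.00233). The other genes of the 6 are FAF2, SEEDLING PLASTID DEVELOPMENT 1, the ATP23-like gene, the ubiquitin-RPL40 gene and the aldolase-like Ebr03G000300. With only the 12 libraries of LN and HN at S1 and S3 edgeR called none of 25222 genes, with 2762 at an unadjusted p below 0.05, and without HN S3 A or HN S3 B it called 2.

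Among the interaction genes not called at S3 itself, some differed mainly at S1. The NPF2.13-like nitrate transporter gene Ebr03G061500 had 121, 78.5 and 120 FPKM in LN and 9.81, 11.5 and 22 FPKM in HN at S1, and overlapping levels at S3 (54.8, 30 and 15.7 in LN, 30.9, 38.2 and 59 in HN). Its interaction adjusted p was 0.0438 in edgeR. Others crossed over. The gene of the cold-response factor DREB1B, Ebr05G052770, had 41.9, 51.5 and 27 FPKM in LN and 198, 181 and 312 FPKM in HN at S1, but 227, 140 and 422 FPKM in LN and 32, 40 and 110 FPKM in HN at S3 (edgeR interaction adjusted p = 0.042). Arginase Ebr0G000050, which breaks arginine down in mitochondria, went the other way, with 30.7 to 67.9 FPKM in LN and 15 to 22.4 FPKM in HN at S1, and 15.9 to 33.4 FPKM in LN and 43.5 to 78.2 FPKM in HN at S3 (edgeR interaction adjusted p = 0.0387). In both genes the groups did not overlap at either of these harvests, in opposite directions. The difference within a harvest was not called in either gene. The edgeR adjusted p at S1 was 0.113 for both, and at S3 it was 0.134 for DREB1B and 0.126 for arginase.

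The difference between S3 and S2 was called for no gene by edgeR on the 27 libraries, with 2544 genes (8.9%) at an unadjusted p below 0.05, and for 254 genes by DESeq2. An effect called at S3 and not at S2 is therefore not shown to differ between these harvests by the main test.

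**Figure D5:**
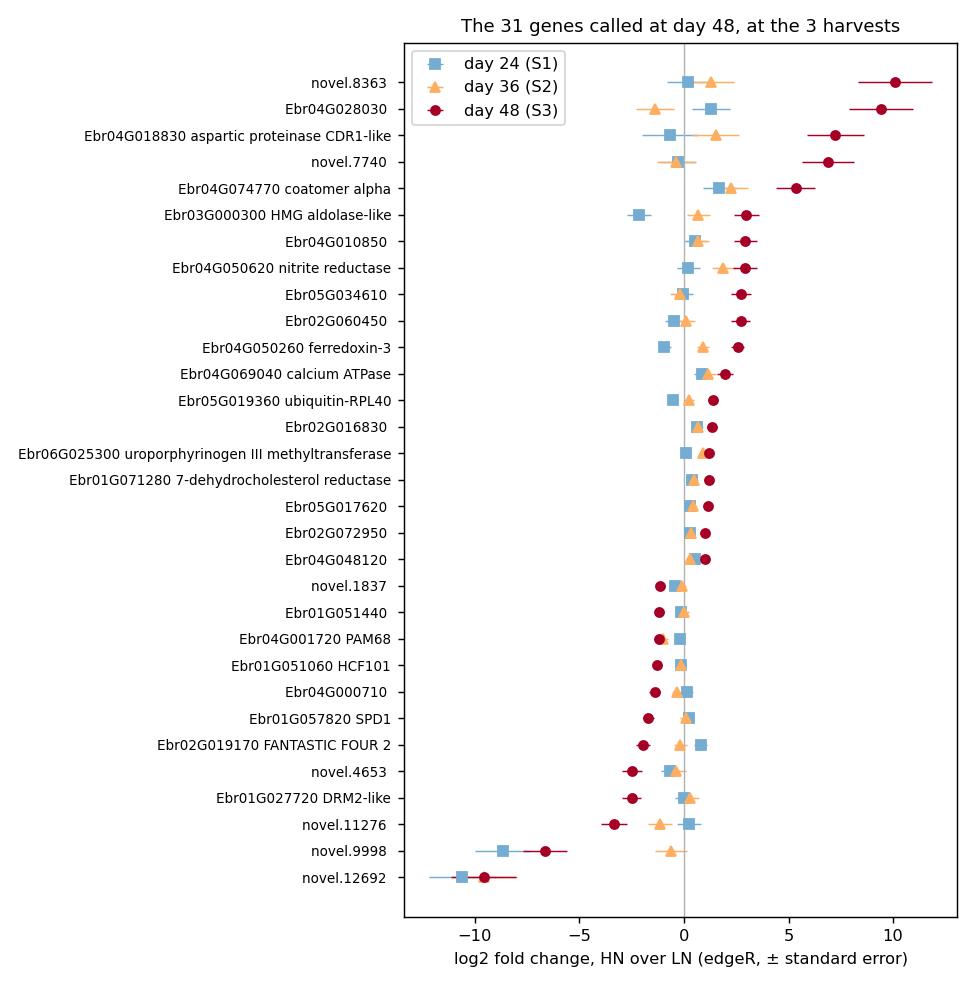
Log2 fold change HN over LN (horizontal axis, ± standard error, edgeR) of the 31 genes called at day 48, with squares for day 24, triangles for day 36 and circles for day 48. Ferredoxin-3 moves from -0.93 through 0.91 to 2.57, and the lowest gene, the assembled one on chromosome 6, lies between -10.60 and -9.54 at all 3 harvests. This lowest gene had no count in HN at day 48, so its value there is set by how the fit treats zero counts and is not a measured size.

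In MN, which received an intermediate amount of nitrate, the mean lay between the LN and HN means in 25 of the 31 called genes. These genes were selected for LN and HN means that lie far apart, and an unrelated group could also fall between such means. The share over all tested genes was not computed, so this count does not show a graded response to nitrate. Ferredoxin-3 had 15.3, 11.9 and 15.6 FPKM and nitrite reductase 29, 27.1 and 35.9 FPKM in MN S3, each above every LN library and below every HN library. The siroheme enzyme had 12.3, 8.73 and 12.5 FPKM, and MN S3 B lay within the LN range. SEEDLING PLASTID DEVELOPMENT 1 had 15.2, 23.2 and 15.3 FPKM and FAF2 had 17.3, 19.8 and 20 FPKM, between the group means of LN and HN. The pentatricopeptide repeat gene Ebr04G000710 was an exception, with 4.25, 3.42 and 4.42 FPKM in MN, close to LN.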

How the data were processed

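The authors sequenced leaf RNA from NEBNext Ultra libraries, aligned reads with HISAT2 2.0.5 and assembled further genes with StringTie 1.3.3b; the submitters' processing notes also name featureCounts 1.5.0-p3. The reference was the published E. pubescens genome that the methods cite (Shen et al.), whose build name, like the strand setting, was not given in the sources used here. As deposited by the authors, the files hold a raw count and an FPKM per gene and library for 58645 genes, of which 44722 are published and 13923 assembled. Deposited columns of the authors' own comparisons were not used.

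Groups and replicates came from the sample titles, columns were matched to them by name, and 0 columns belonged to other samples. Counts were tested in R 4.3.3 with edgeR 4.0.16 (TMM, filterByExpr, quasi-likelihood test, two-sided) on 27 libraries with 1 mean for each of 9 groups. Standard errors were taken as the size of the log2 fold change divided by the root of the F statistic. FPKM is given as a level and was tested only as an alternative. The methods call the 3 libraries of a group biological replicates, and the labels do not say whether they came from separate plants. The p-values therefore measure the spread between libraries of a group, as estimated over all 9 groups. The 27 libraries hold 7 close replicate pairs. The common coefficient of variation between replicates was 0.673 in the main fit and 0.747 with 1 library of each close pair left out. Counting intervals and floors cover counting error only. The script was tested on simulated counts.

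The members and lists were chosen with earlier results of these data known, and so was the fit of 27 libraries, since the fits of 6 were known to give few edgeR calls. Some list keywords were adjusted to the descriptions after a first fit. Named genes are the 10 with the smallest p in each direction among called genes that do not overlap, the gene with the smallest p of each list and direction, and the study's 10 qPCR genes. The remaining called genes, and the ferredoxin, glucose-6-phosphate dehydrogenase, nitrate reductase, glutamate synthase, glutamine synthetase, asparagine synthetase, Calvin cycle, starch, phosphate, cinnamate hydroxylase, CLC-b and PIP2-1 examples, were chosen after their values were seen. Alternatives were DESeq2 1.42.0, limma 3.58.1 on log2(FPKM + 1), RLE scaling, no filter, no fold threshold, a replicate block, fewer libraries and leaving out each library. No gene sequences were used here.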

Additional observations from a re-analysis of the deposited data

Results flagged for a closer look

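The HN against LN difference at S3 differed from that at S1 for 24 genes by a test of the difference itself (edgeR, adjusted p below 0.05). Of the genes called at S3, ferredoxin-3 Ebr04G050260 had a difference between harvests of 3.50 on the log2 scale, the ATP23-like Ebr02G060450 of 3.21, the ubiquitin-RPL40 gene Ebr05G019360 of 1.91, and the aldolase-like Ebr03G000300 of 5.13. SEEDLING PLASTID DEVELOPMENT 1, Ebr01G057820, had -1.94 and FAF2, Ebr02G019170, had -2.75. Groups of 3 libraries are too small for a search for outlying samples.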

How the results depend on the processing

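The count of 31 called genes was 31 with RLE scaling, 35 without a fold threshold and 38 with the replicate letter as a block on 27 libraries. It was 15 with no filter on low counts, 1 with the 6 libraries alone and 1 with the 9 of S3, 0 with the replicate block on the 6 libraries (2936 genes at an unadjusted p below 0.05), 927 with DESeq2 on 6 and 1009 on 27 libraries, and 421 with limma on log2(FPKM + 1). After the data were seen, 1 library of each close pair was left out, with 0 calls for 7 pairs and 1 for 6 pairs. Leaving out each library gave 1 to 530 calls, and 0 to 559 with edgeR on 6 libraries. With DESeq2 on 6 it gave 1094, 3487 and 904 calls without LN S3 A, B and C and 336, 276 and 2330 without HN S3 A, B and C. The causes of these changes were not tested. Several of these fits held fewer libraries, and without the filter 44530 genes were tested. All 31 genes were also called with RLE scaling and with DESeq2 on 27 libraries, 28 under the block, 27 under limma and 15 without the filter.

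The 24 genes that differed between S3 and S1 were 29 with RLE scaling, 16 without the filter, 33 under the replicate block, 858 with DESeq2, 0 with 12 libraries and 0 with either set of close pairs left out (1741 and 2113 genes at an unadjusted p below 0.05), and 2 to 233 when 1 library was left out. For S3 against S2 the count of 0 became 7 with 12 libraries, 254 with DESeq2 and 0 to 42 when 1 library was left out. Letters were not taken as pairs in the main fit. Deviations from group means of same-letter LN and HN S3 libraries correlated at -0.05, 0.22 and 0.18. Over all groups the mean correlation was 0.036 for the same letter (-0.22 to 0.37) and -0.018 for different letters (-0.33 to 0.34).

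Fold changes close to 0 turned sign in 8 overlapping genes. EpF3H Ebr04G062950 was 0.101 and 0.081 under the block on 27 and 6 libraries, 0.14 with limma, 0.021 and 0.022 without 7 and 6 close pairs, and -0.54 to 0.64 without 1 library. EpCHS5 Ebr03G073940 was 0.11 under the block on 6 libraries, 0.27 with limma, 0.039 and 0.040 without close pairs, and -0.90 to 0.82 without 1 library. EpCHS2 Ebr05G049130 was 0.31 with limma and -1.11 to 0.66 without 1 library. Without 1 library, EpUGT16_A Ebr06G040830 was -0.32 to 0.79, EpPAL2 Ebr04G040710 -0.40 to 2.16, EpFLS3 Ebr04G051790 -0.29 to 0.69 and glutamine synthetase Ebr02G017870 -0.37 to 0.12. Asparagine synthetase Ebr01G067880 was 0.65 and 3.20 under the block on 27 and 6 libraries, 2.36 with limma and -0.70 to 5.03 without 1 library. At 15064043 counts or more per library, the spread between libraries exceeds counting error.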

Other observations

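In the gene groups below edgeR called no gene. DESeq2 on the 6 libraries called 2 lower AP2/ERF-ERF genes and 1 higher gene each of the auxin, senescence and WRKY lists. SNF2 chromatin remodellers had a median log2 fold change of -0.50 over 37 tested genes, with 11 (29.7%) at an unadjusted edgeR p below 0.05 and the lower value in HN, against 8.77% of all tested genes. That was 7 (18.9%) without HN S3 A and 6 (16.2%) without HN S3 B or LN S3 C. Those fits held 4.76%, 4.69% and 6.73% of all genes on that side. CHROMATIN REMODELING 24 (Ebr04G025150) had 2.51, 1.25 and 3.58 FPKM in LN and 0.445, 0.465 and 1.28 FPKM in HN (log2 fold change -1.74, edgeR adjusted p = 0.0975), with HN S3 C just above LN S3 B. Genes of the AP2/ERF-ERF family had a median of 0.00 over 74 genes, with 2 on the higher and 10 (13.5%) on the lower side at such a p, and 5 on the lower side without HN S3 A. Of the 18 tested DREB1-named genes, which act in cold responses in Arabidopsis, 6 were on the lower side, and one DREB1B gene, Ebr05G000120, had 768, 284 and 584 FPKM in LN and 178, 203 and 268 FPKM in HN (log2 fold change -1.33, edgeR adjusted p = 0.158).

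Auxin response genes of the Aux/IAA, SAUR and GH3 families had a median of 0.63 over 58 genes, with 7 (12.1%) on the higher and 2 on the lower side at an unadjusted edgeR p below 0.05, against 7.65% and 8.77% of all tested genes. On the higher side it was 3 of 66 without LN S3 A, 17 of 65 without LN S3 B and 2 of 66 (3.03%) without LN S3 C. Those fits held 5.93%, 11.8% and 4.77% of all genes on that side. The auxin-responsive SAUR36 gene Ebr04G058040 was among the 2 on the lower side, with 204, 126 and 123 FPKM in LN and 55.9, 59.3 and 84.5 FPKM in HN (edgeR adjusted p = 0.0793). Senescence and chlorophyll breakdown genes had a median of -0.41 over 12 genes, with 3 on the lower side (1 of 13 without HN S3 A or HN S3 B and 5 of 13 without LN S3 B), and autophagy genes a median of -0.05 over 25 genes. WRKY (0.04 over 39 genes) and NAC (0.10 over 46 genes) transcription factors had medians near 0.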
